A study of Homo sapiens with 4 samples.

Results

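The 46 genes described here encode the machinery that copies chromosomal DNA in S phase: the origin recognition complex, the licensing factors, the MCM helicase and its activators, the polymerases, the clamp and clamp loader, single-strand binding protein, lagging-strand enzymes, chromatin assembly factors and the enzymes that supply deoxynucleotides. They were chosen by gene symbol, with no measured value in the choice, and all 46 were found among the 20140 genes of the tables. The samples were 4 RNA libraries made from the human cell line MDA-MB-231, which derives from a triple-negative breast cancer. The 2 knockdown libraries, titled shA, are labelled as AURKA knockdown, and the 2 control libraries, titled shC, are labelled as control. AURKA encodes Aurora A, a kinase of centrosomes and the mitotic spindle. The submitters' design text calls the control mock-transfected while its titles carry the same sh prefix as the knockdown, so whether control cells carried a hairpin remains unstated. Both groups were the same line grown in L-15 medium with serum, and the design text counts the 2 libraries of a group as biological replicates. The labels say nothing of separate days or clones, so p-values measure the spread between these libraries, which may be technical in part.

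Replication starts in G1, when the origin recognition complex, CDC6 and CDT1 load the ring of MCM2 to MCM7 onto DNA, a step called licensing that geminin (GMNN) blocks from S phase onward. In S phase CDC45 and the GINS complex join the ring to form the active helicase, primase starts each new strand, and polymerases held by the PCNA clamp extend it. Many of these genes are transcribed under E2F factors around the passage into S phase, so their transcripts are commonly read as a sign of cycling cells.

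The promoters of 5 genes are shown because these are the genes with the widest differences described below: GINS2, GMNN and LIG1 had the largest differences between knockdown and control among members with a promoter entry, and CDC6 and MCM10, picked after their values were seen, differed most between the replicate numbers besides GINS2. The sequences are RefSeq promoters of GRCh38.p14, each running from 250 bases before to 50 bases after the first listed start of the gene, 5′ to 3′ on the gene's strand. Capitals mark E2F words, that is the word TTCCCGC or the word TTGGCGC or the word TTCGCGC or the word TTGCCGC, on either strand.
GINS2 (chr16:85688905-85689204, minus strand): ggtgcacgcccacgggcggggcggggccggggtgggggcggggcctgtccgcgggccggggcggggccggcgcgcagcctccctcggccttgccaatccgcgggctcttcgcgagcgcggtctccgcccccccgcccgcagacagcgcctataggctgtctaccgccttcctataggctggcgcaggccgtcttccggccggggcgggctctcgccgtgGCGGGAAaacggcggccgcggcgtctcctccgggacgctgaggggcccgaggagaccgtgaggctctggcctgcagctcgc
GMNN (chr6:24774687-24774986, plus strand): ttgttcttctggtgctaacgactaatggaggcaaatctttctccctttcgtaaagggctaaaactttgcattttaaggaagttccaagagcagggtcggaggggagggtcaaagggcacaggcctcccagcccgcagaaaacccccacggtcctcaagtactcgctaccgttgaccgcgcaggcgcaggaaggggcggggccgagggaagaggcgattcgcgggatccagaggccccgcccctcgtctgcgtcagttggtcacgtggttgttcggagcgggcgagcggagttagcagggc
LIG1 (chr19:48170295-48170594, minus strand): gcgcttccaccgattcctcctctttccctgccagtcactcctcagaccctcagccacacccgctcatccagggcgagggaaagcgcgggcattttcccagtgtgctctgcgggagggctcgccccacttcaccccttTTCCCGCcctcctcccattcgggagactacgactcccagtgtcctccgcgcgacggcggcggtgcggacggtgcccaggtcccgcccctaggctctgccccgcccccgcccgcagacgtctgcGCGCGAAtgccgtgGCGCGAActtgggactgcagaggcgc
CDC6 (chr17:40287629-40287928, plus strand): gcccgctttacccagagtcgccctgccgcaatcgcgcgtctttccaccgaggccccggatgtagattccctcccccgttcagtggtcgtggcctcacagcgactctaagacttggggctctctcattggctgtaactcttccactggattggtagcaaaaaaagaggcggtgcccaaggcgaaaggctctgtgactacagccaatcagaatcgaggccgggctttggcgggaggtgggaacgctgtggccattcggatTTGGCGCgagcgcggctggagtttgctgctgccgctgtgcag
MCM10 (chr10:13161308-13161607, plus strand): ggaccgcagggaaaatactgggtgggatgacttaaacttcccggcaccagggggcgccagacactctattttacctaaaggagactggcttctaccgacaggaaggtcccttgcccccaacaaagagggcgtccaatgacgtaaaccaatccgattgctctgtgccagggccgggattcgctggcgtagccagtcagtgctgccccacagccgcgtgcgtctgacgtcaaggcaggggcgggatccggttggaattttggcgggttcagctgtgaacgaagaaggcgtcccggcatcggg

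LIG1 held 3 E2F words, GINS2 and CDC6 held 1 each, and GMNN and MCM10 held none in this window. Only the words named above were searched, and other forms of an E2F site were not. Of the 46 genes, 41 had a promoter entry, and 28 of these (68.3%) held an E2F word, against 13.1% of all 27305 promoters of that length. The word CCAAT, searched on both strands, stood in 23 of the 41 (56.1%) and in 35.7% of all promoters, with 3 matches in CDC6, 2 in MCM10 and 1 in GINS2. The CHR words TTTGAA and TTCGAA, named for the cell cycle homology region of genes of G2 and M phase, stood in 2 of the 41 (4.88%), MCM6 and RRM1, against 16.6% of all. On the other strand CCAAT reads ATTGG, which can share letters with TTGGCGC, and a match is only a description of the sequence.

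AURKA itself was at 22.3 and 23.7 FPKM in knockdown cells, against 124 and 99.1 FPKM in control cells, where FPKM counts fragments relative to transcript length and to library depth, summed over a gene's transcripts, and values of a group are given for replicate 1 and then replicate 2. The knockdown libraries did not overlap the control libraries (log2 difference -2.22 ± 0.15 (SE), adjusted p 0.0822, or 0.000633 with the replicate number as a term), which is the direction the labels give. Estimated depths were 21100000 and 27600000 fragments in the knockdown libraries, against 17300000 and 24200000 in the control libraries. Markers of the line ran from VIM at 1701 to 1814 FPKM in knockdown cells, against 1936 to 2068 FPKM in control cells, down to SPARC at 16.2 and 17.1 FPKM, against 22.7 and 17.0 FPKM, while of 6 genes listed as low in the line ESR1, PGR and CDH1 were under 1 FPKM in all 4 libraries. The other 3 were not: ERBB2 was at 16.5 to 20.2 FPKM in knockdown cells and 18.4 to 18.9 FPKM in control cells, and EPCAM and GATA3 were over 2 FPKM in every library. Among 11 measured markers of blood, endothelium and fibroblasts, CD3E and HBB were at 0 in every library, while 2 fibroblast markers reached 1 FPKM. PDGFRB was at 2.24 and 1.37 FPKM in knockdown cells, against 2.77 and 1.44 FPKM in control cells. COL1A1 was at 2.29 and 1.17 against 3.61 and 1.04 FPKM. The summed level of the markers was 3.47 to 4.92 FPKM in knockdown cells and 3.55 to 6.76 FPKM in control cells.

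None of the 46 replication genes differed between knockdown and control cells past an adjusted p of 0.05, and 0% of all tested genes did. With the replicate number as a term, 0 members and 3.52% of all genes passed. The differences ran from -0.27 on the log2 scale for RRM2, the small subunit of ribonucleotide reductase, to 0.42 for GINS2, a subunit of the GINS complex, which are folds of 0.828 and 1.31. By the median, the members stood at -0.042 against 0.012 for all 12137 genes tested, and 20 of 46 were above 0, against 52.3% of all genes. Levels spanned 4.87 to 147 FPKM, and every member passed the filter of at least 1 FPKM in at least 2 libraries. In a bulk sample, fewer cells in S phase and less RNA per cell cannot be told apart.

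**Figure D1:**
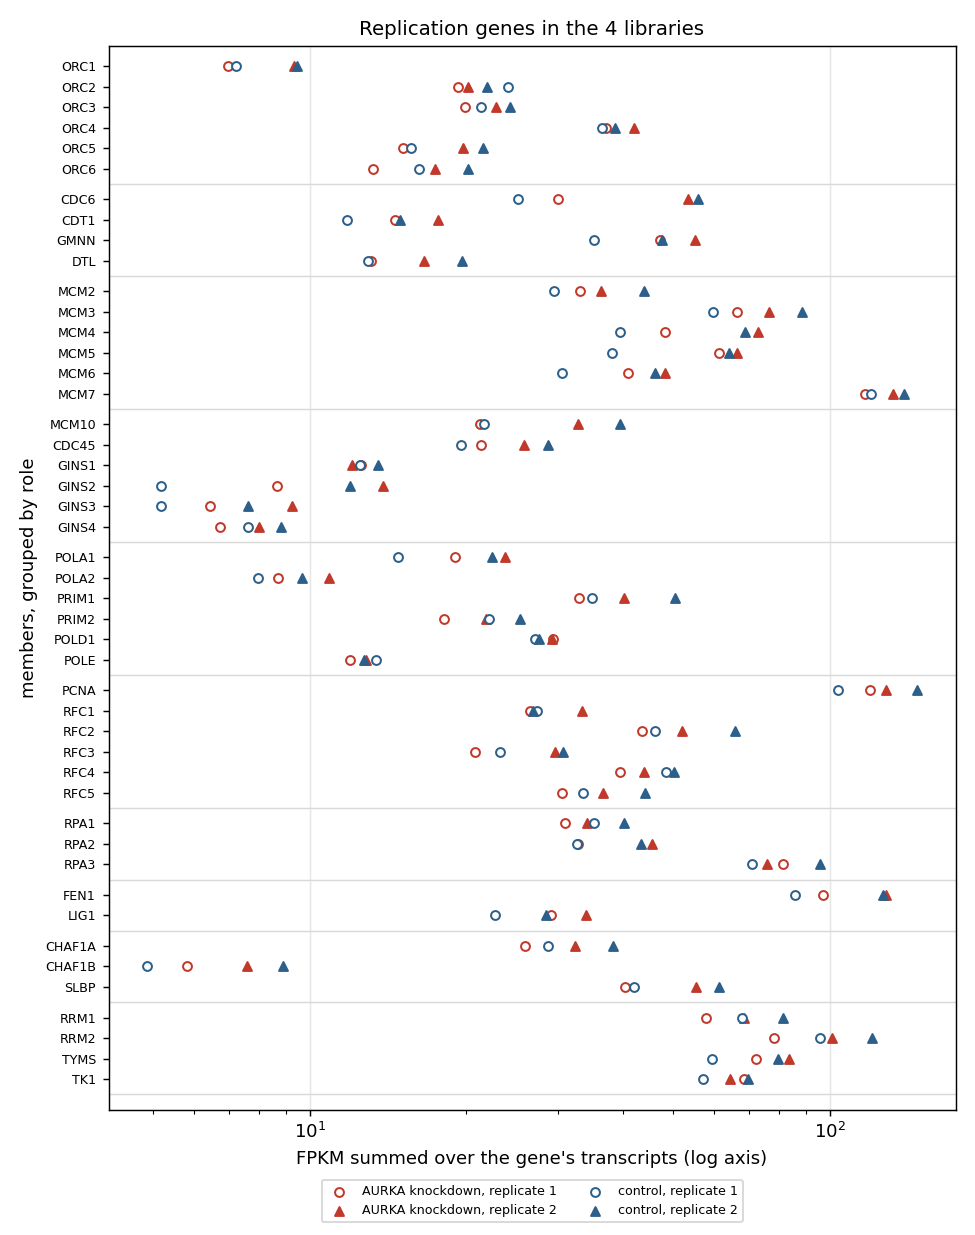
Level of each of the 46 replication genes in each library, as FPKM summed over transcripts on a log axis, with genes grouped by role from origin recognition at the top to nucleotide supply at the bottom. Red marks are knockdown and blue marks control libraries, and triangles (replicate 2) lie right of circles (replicate 1) for most genes, as for CDC6 at 53.4 and 55.8 against 30.1 and 25.1 FPKM.

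The test was limma on log2(FPKM + 1), two-sided, with p-values adjusted by the Benjamini-Hochberg method over all tested genes. It called 0 members (adjusted p 0.822 or more) and 0% of all genes, with 0 of 46 members and 777 of 12137 genes at an unadjusted p under 0.05. The tables of the 2 replicate numbers differ in row order and in 81 transcripts each. Separate quantification runs, each with 1 library of each group, were inferred from this, and no label names a run. With the replicate number as a term 0 members (adjusted p 0.104 or more) and 427 genes (3.52%) were called. At an unadjusted p under 0.05 were 11 of 46 members and 2687 of 12137 genes. The half-width of a member's 95% interval was 0.48 at the median on the log2 scale and 0.23 with that term, so small differences were not detectable with 2 libraries a group. Unless stated, intervals below are from the fit without that term, in which the difference between replicate numbers counts as error. With the term the intervals of those 11 members excluded 0, among them RRM2 (-0.45 to -0.09), GMNN (0.10 to 0.52) and LIG1 (0.085 to 0.51). None of the 11 passed after adjustment.

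Both knockdown libraries were above both controls in 2 members, LIG1 and POLD1, against 19.4% of all genes, and below both in 4 members, ORC2, PRIM2, RFC4 and RPA1, against 16.6% of all genes. The knockdown difference was positive in both replicate numbers for 15 members (32.6%), against 35.3% of all genes, and negative in both for 19 (41.3%), against 31.7%. It was positive in replicate 1 and negative in replicate 2 for 10 members (CDC6, DTL, MCM2, MCM3, CDC45, GINS1, PCNA, RPA3, CHAF1B and TK1), against 13.6% of all genes, and the reverse for POLE and RFC1, against 19.2%. The members' median difference was 0.015 in replicate 1, with 25 members (54.3%) above 0 against 49% of all genes, and -0.12 in replicate 2, with 17 (37%) above 0 against 54.6%. Its sign turned with the library left out, from -0.14 without knockdown replicate 2 and -0.22 without control replicate 1 to 0.096 without knockdown replicate 1 and 0.16 without control replicate 2. Those fits had no replicate term, so with 1 library left out the group difference also held part of the replicate difference.

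**Figure D2:**
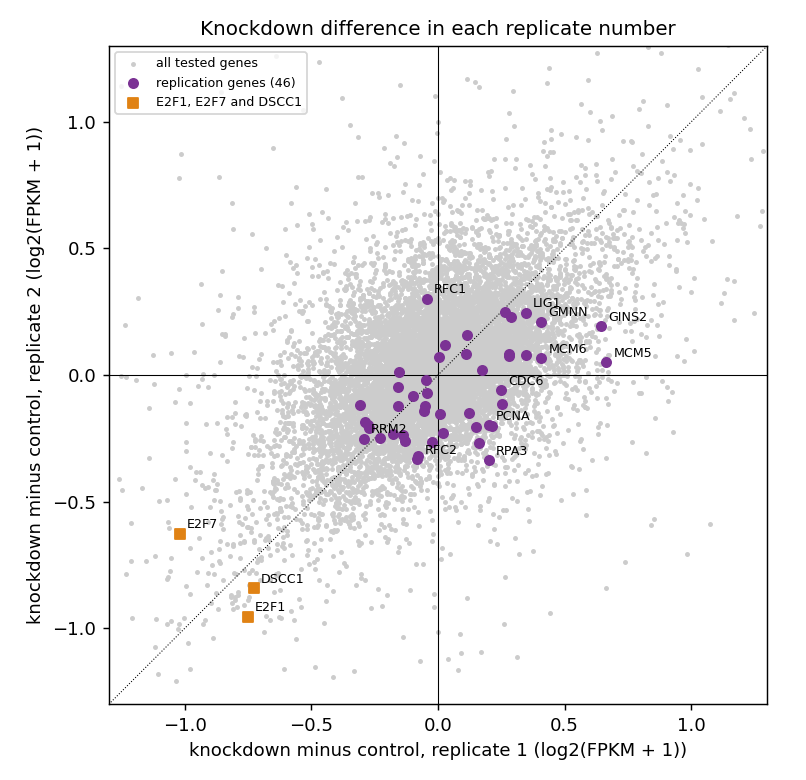
Knockdown minus control on log2(FPKM + 1) in replicate 1 (horizontal) and in replicate 2 (vertical), 1 point per gene, with genes beyond 1.3 on either axis not drawn and the dotted line marking equal differences. The replication genes (purple) lie near the origin, with MCM5 and GINS2 farthest right at 0.67 and 0.64 in replicate 1, while E2F1, E2F7 and DSCC1 (orange) lie at the lower left.

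The origin recognition complex binds replication origins and recruits the other licensing factors. Its subunit with the largest knockdown difference was ORC6, at 13.2 and 17.4 FPKM in knockdown cells, against 16.2 and 20.1 FPKM in control cells (log2 difference -0.24, 95% interval -0.72 to 0.25). ORC2 was at 19.3 and 20.2 FPKM in knockdown cells, against 24.1 and 21.9 FPKM in control cells (-0.21, -0.54 to 0.12). The groups of ORC2 did not overlap, while those of ORC6 did. ORC1, which is regulated through the cell cycle, was at 6.97 and 9.32 FPKM in knockdown cells, against 7.23 and 9.45 FPKM in control cells, so the replicate number separated its libraries and the group did not. ORC3 (19.9 and 22.8 against 21.3 and 24.3 FPKM) and ORC5 (15.1 and 19.7 against 15.7 and 21.6 FPKM) showed the same order of libraries. ORC4, at 37.2 and 42.1 FPKM in knockdown cells against 36.4 and 38.6 FPKM in control cells, was the only subunit with a positive difference, 0.07. ORC2 and ORC4 lie in loci that the files join with other genes.

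CDC6 and CDT1 load the MCM ring, geminin binds and inhibits CDT1, and DTL is the substrate receptor of the ligase that destroys CDT1 on PCNA-bound chromatin. GMNN was at 47.1 and 55.1 FPKM in knockdown cells, against 35.3 and 47.5 FPKM in control cells (log2 difference 0.31, 95% interval -0.15 to 0.77, adjusted p 0.851, or 0.109 with the replicate number as a term). CDT1 was at 14.6 and 17.7 FPKM in knockdown cells, against 11.8 and 14.9 FPKM in control cells (0.26, -0.20 to 0.71). Within each replicate number the knockdown library of both genes was the higher, but knockdown replicate 1 lay just below control replicate 2 in both. CDC6 was at 30.1 and 53.4 FPKM in knockdown cells, against 25.1 and 55.8 FPKM in control cells. Its interval, -0.99 to 1.18, was the widest of the members without the replicate number as a term, and was -0.15 to 0.33 with it. DTL was at 13.1 and 16.6 FPKM in knockdown cells, against 12.9 and 19.6 FPKM in control cells, close together in replicate 1 and lower with knockdown in replicate 2.

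MCM2 to MCM7 form the 6-subunit ring that unwinds DNA ahead of the polymerases. MCM5 had the largest knockdown difference among them, at 61.1 and 66.2 FPKM in knockdown cells, against 38.2 and 63.9 FPKM in control cells (log2 difference 0.36, 95% interval -0.27 to 0.98). The difference lay almost wholly in replicate 1, where it was 0.67, and was 0.05 in replicate 2, with control replicate 1 as the lowest library. MCM6 was at 40.9 and 48.2 FPKM in knockdown cells, against 30.6 and 46.05 FPKM in control cells, with 0.41 in replicate 1 and 0.07 in replicate 2. MCM4 was at 48.3 and 72.9 FPKM in knockdown cells, against 39.6 and 68.8 FPKM in control cells, and both of its replicate 2 libraries exceeded both of its replicate 1 libraries. MCM2, at 33.1 and 36.3 FPKM in knockdown cells against 29.5 and 43.9 FPKM in control cells, and MCM3, at 66.2 and 76.6 against 59.6 and 88.3 FPKM, had the controls as both the lowest and the highest library. MCM7, the most abundant subunit and host of a microRNA cluster, was at 117 and 132 FPKM in knockdown cells, against 120.2 and 139 FPKM in control cells, in a locus that the files join with 4 other genes.

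CDC45 and the 4 GINS subunits complete the active helicase, and MCM10 helps to activate it. GINS2 had the largest knockdown difference of all members, at 8.64 and 13.8 FPKM in knockdown cells, against 5.18 and 11.98 FPKM in control cells (log2 difference 0.42, 95% interval -0.59 to 1.43, adjusted p 0.918, or 0.152 with the replicate number as a term). The groups overlapped, since knockdown replicate 1 lay below control replicate 2, and the difference between replicate numbers in GINS2 was larger than the one between groups. GINS3 was at 6.44 and 9.25 FPKM in knockdown cells, against 5.19 and 7.63 FPKM in control cells (0.26, -0.38 to 0.89). The partners of GINS2 and GINS3 in the same complex showed no such order: GINS1 was at 12.6 and 12.1 FPKM in knockdown cells, against 12.5 and 13.6 FPKM in control cells, and GINS4 at 6.71 and 7.995 against 7.60 and 8.80 FPKM. MCM10 was at 21.3 and 32.8 FPKM in knockdown cells, against 21.7 and 39.6 FPKM in control cells. CDC45 was at 21.3 and 25.8 FPKM in knockdown cells, against 19.5 and 28.7 FPKM in control cells. In both of these genes the replicate numbers separated the libraries and the groups did not.

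Polymerase alpha and its primase subunits start each strand, polymerase delta (POLD1) extends the lagging strand and polymerase epsilon (POLE) the leading strand. The 2 primase subunits were lower with knockdown in both replicate numbers, PRIM2 at 18.1 and 21.8 FPKM in knockdown cells, against 22.1 and 25.3 FPKM in control cells (log2 difference -0.24, 95% interval -0.63 to 0.15), and PRIM1 at 33.0 and 40.2 against 34.9 and 50.5 FPKM (-0.20, -0.73 to 0.34). The catalytic subunit POLA1 was at 19.0 and 23.8 FPKM in knockdown cells, against 14.8 and 22.4 FPKM in control cells (0.21, -0.37 to 0.80), and the accessory subunit POLA2 at 8.69 and 10.9 against 7.95 and 9.68 FPKM. The 4 subunits of the same complex thus had differences of opposite sign, with none past the test. POLD1 was at 29.4 and 29.3 FPKM in knockdown cells, against 27.1 and 27.6 FPKM in control cells, and the libraries of a group lay closer together on the log2 scale than in any other member. POLE was at 11.9 and 12.9 FPKM in knockdown cells, against 13.4 and 12.7 FPKM in control cells.

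PCNA is the sliding clamp, and the 5 RFC subunits load it. PCNA was at 119.5 and 128 FPKM in knockdown cells, against 104 and 147 FPKM in control cells, so the knockdown libraries lay between the controls and the log2 difference was 0.0015 (95% interval -0.47 to 0.47). RFC4 had the lowest adjusted p of the members, at 39.5 and 44.0 FPKM in knockdown cells, against 48.5 and 50.2 FPKM in control cells (-0.24, -0.55 to 0.07, adjusted p 0.822, or 0.162 with the replicate number as a term). Its groups did not overlap, and its locus is joined with EIF4A2 in the files. RFC2 was at 43.6 and 52.0 FPKM in knockdown cells, against 46.2 and 65.7 FPKM in control cells (-0.21, -0.71 to 0.30). RFC5 was at 30.5 and 36.7 against 33.5 and 44.2 FPKM, and RFC3 at 20.8 and 29.6 against 23.2 and 30.7 FPKM. The large subunit RFC1 was higher with knockdown in replicate 2 alone, at 26.5 and 33.4 FPKM in knockdown cells, against 27.4 and 26.9 FPKM in control cells.

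RPA1, RPA2 and RPA3 form the trimer that coats single-stranded DNA. RPA1 was at 31.0 and 34.1 FPKM in knockdown cells, against 35.2 and 40.3 FPKM in control cells (log2 difference -0.21, 95% interval -0.55 to 0.14), without overlap of the groups. RPA2, at 32.8 and 45.6 FPKM in knockdown cells against 32.7 and 43.4 FPKM in control cells, was nearly equal between the groups within each replicate number. RPA3 was at 81.4 and 75.7 FPKM in knockdown cells, against 70.7 and 95.8 FPKM in control cells, and is the only member whose leading transcript was not the same in all 4 libraries. On the lagging strand, the flap endonuclease FEN1 was at 97.0 and 128.5 FPKM in knockdown cells, against 85.8 and 127 FPKM in control cells. DNA ligase LIG1 was at 29.2 and 34.0 FPKM in knockdown cells, against 22.7 and 28.5 FPKM in control cells (0.30, -0.12 to 0.71, adjusted p 0.842, or 0.119 with the replicate number as a term). Both knockdown libraries of LIG1 lay above both controls.

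CHAF1A and CHAF1B are subunits of the factor that places new histones behind the fork, and SLBP binds the stem-loop of histone mRNA. CHAF1A was at 25.96 and 32.3 FPKM in knockdown cells, against 28.7 and 38.2 FPKM in control cells (log2 difference -0.19, 95% interval -0.67 to 0.30). CHAF1B, the member with the lowest single value, was at 5.81 and 7.60 FPKM in knockdown cells, against 4.87 and 8.87 FPKM in control cells. SLBP was at 40.4 and 55.2 FPKM in knockdown cells, against 42.1 and 61.1 FPKM in control cells. In all 3 the replicate 2 libraries exceeded the replicate 1 libraries in both groups. Ribonucleotide reductase, the enzyme that makes deoxynucleotides, had both subunits lower with knockdown in each replicate number. RRM2 was at 78.1 and 101 FPKM in knockdown cells, against 95.9 and 120.4 FPKM in control cells (-0.27, -0.73 to 0.19, adjusted p 0.861, or 0.104 with the replicate number as a term), and RRM1 at 57.7 and 68.4 against 67.8 and 81.4 FPKM (-0.24, -0.62 to 0.15, adjusted p 0.856, or 0.143 with that term). The thymidylate enzymes did not show that order: thymidylate synthase TYMS was at 72.2 and 83.7 FPKM in knockdown cells, against 59.3 and 79.4 FPKM in control cells, and thymidine kinase TK1 at 68.3 and 64.3 against 57.1 and 69.6 FPKM. Neither of these differences passed the test.

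Between the replicate numbers the members differed more than between the groups. In replicate 2, 18 of 46 members were higher than in replicate 1 at an adjusted p under 0.05 and 0 were lower, against 4.80% of all genes called higher and 9.22% called lower. The difference was above 0 in 45 of 46 members, all but ORC2, against 41.9% of all genes, and its median was 0.34 on the log2 scale against -0.057 for all genes. Both replicate 2 libraries were above both replicate 1 libraries in 35 members, against 20.5% of all genes, and below both in 0, against 32.7%. In 38 members the replicate difference was larger in size than the knockdown difference, against 58.9% of all genes. What a replicate number marks is not in the labels, so a culture, a day and a quantification run cannot be told apart.

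**Figure D3:**
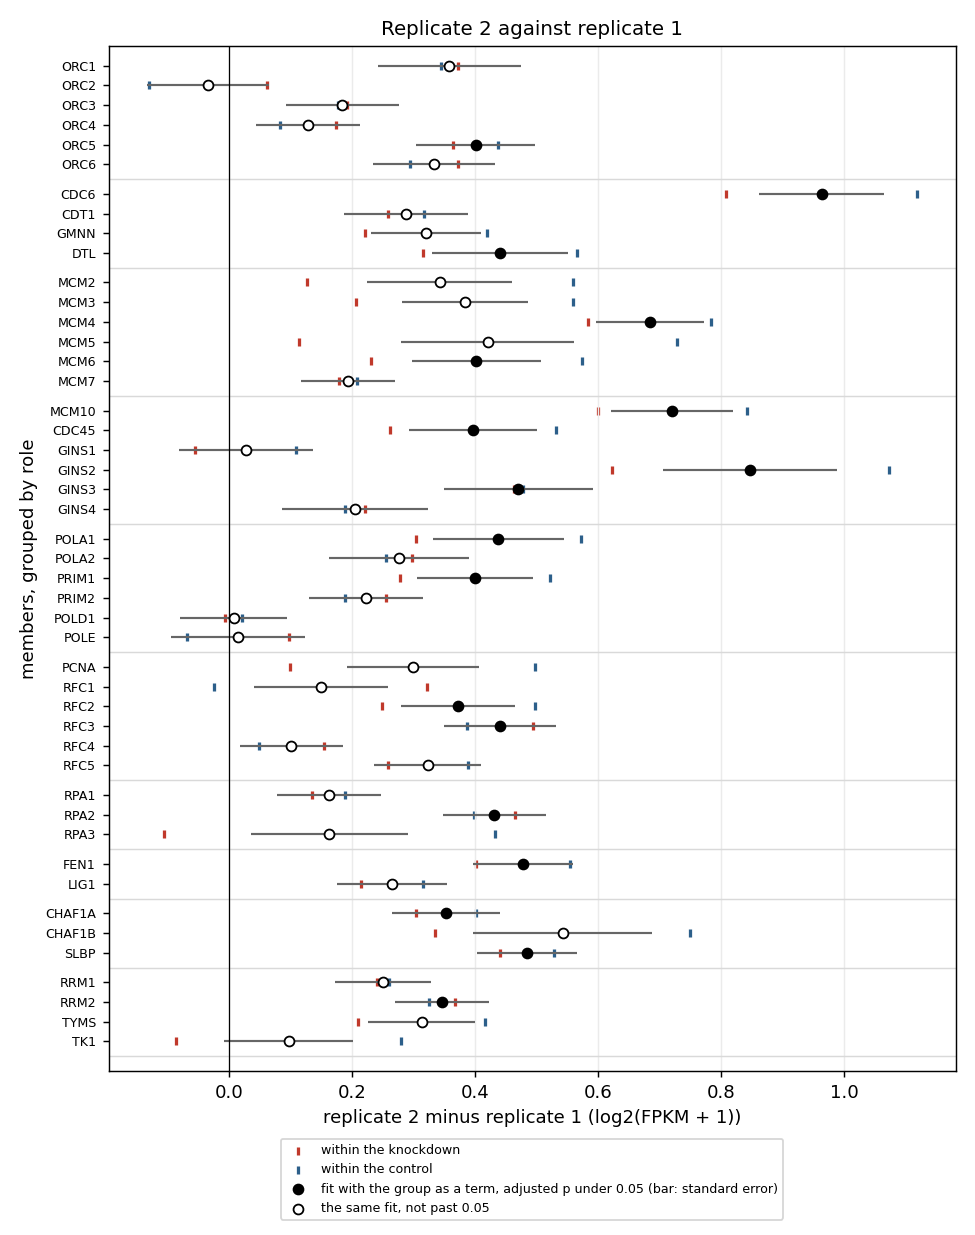
Replicate 2 minus replicate 1 on log2(FPKM + 1) for each member, with the value within the knockdown (red tick), within the control (blue tick) and from the fit over both groups (circle, bar ± SE, filled where the adjusted p is under 0.05). The circles lie right of 0 for all members but ORC2, with CDC6 (0.96), GINS2 (0.85), MCM10 (0.72) and MCM4 (0.68) farthest right.

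This test was limma with the group as a term, 582 genes being called higher and 1119 lower, or 1366 and 1483 with median-of-ratios scaling. Under that scaling 31 members were called, none lower, and 46 were above 0. With all libraries brought to the same total 14 members were called, none lower, and 44 were above 0. All genes called were then 541 higher and 1020 lower. A pseudocount of 0.1 left 11 members called, with 451 of all genes called higher and 910 lower. Without the filter on low values 0 members and 0 genes were called by limma (30 members and 4345 genes at an unadjusted p under 0.05). Without the group term 0 were called as well (21 members and 2347 genes at an unadjusted p under 0.05), and with 1 library left out, which leaves no degree of freedom for the term, 1 was called without knockdown replicate 1 and 0 without knockdown replicate 2, control replicate 1 or control replicate 2, with 43 or 44 members above 0 each time. Estimated depth moved with the replicate number, at 27600000 and 24200000 fragments in replicate 2 against 21100000 and 17300000 in replicate 1, and its part in the result was not tested.

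The licensing factor CDC6, whose promoter is shown above with 1 E2F word just after the start and 3 CCAAT words, had the largest replicate difference. It was at 53.4 FPKM in knockdown and 55.8 FPKM in control cells of replicate 2, against 30.1 and 25.1 FPKM in replicate 1, a 1.98-fold difference (0.96 ± 0.10 on the log2 scale (SE), adjusted p 0.0131). GINS2 was at 13.8 and 11.98 FPKM in replicate 2, against 8.64 and 5.18 FPKM in replicate 1 (0.85 ± 0.14, adjusted p 0.0194). MCM10, whose promoter holds none of the E2F words searched in the window shown, was at 32.8 and 39.6 FPKM in replicate 2, against 21.3 and 21.7 FPKM in replicate 1 (0.72 ± 0.10, adjusted p 0.0144). The helicase subunit MCM4 was at 72.9 and 68.8 FPKM in replicate 2, against 48.3 and 39.6 FPKM in replicate 1 (0.68 ± 0.09, adjusted p 0.0144). In all 4 genes every replicate 2 library exceeded every replicate 1 library.

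The 18 members that were higher in replicate 2 came from every role. They were ORC5 among the origin subunits, CDC6 and DTL of licensing, MCM4 and MCM6 of the ring, and MCM10, CDC45, GINS2 and GINS3 of helicase activation. The others were POLA1 and PRIM1 of the priming complex, RFC2 and RFC3 of the clamp loader, RPA2, FEN1, CHAF1A, SLBP and RRM2. Their log2 differences ran from 0.35 (RRM2) to 0.96. CHAF1B (0.54, adjusted p 0.0516) and MCM5 (0.42, adjusted p 0.0861) had differences of that size with larger standard errors of 0.15 and 0.14, and did not pass. MCM3 (0.38 ± 0.10 (SE), adjusted p 0.0509) and ORC1 (0.36 ± 0.12, adjusted p 0.0805) lay in that range as well and did not pass. An E2F word stood in the promoters of 62.5% of the 16 called members with an entry and of 72% of the 25 others.

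At the other end, 4 members were nearly level between the replicate numbers. ORC2 was at 20.2 and 21.9 FPKM in replicate 2, against 19.3 and 24.1 FPKM in replicate 1 (-0.034, adjusted p 0.838). POLD1 was at 29.3 and 27.6 FPKM in replicate 2, against 29.4 and 27.1 FPKM in replicate 1 (0.0082, adjusted p 0.957), and POLE at 12.9 and 12.7 against 11.9 and 13.4 FPKM (0.015, adjusted p 0.935). GINS1 was at 12.1 and 13.6 FPKM in replicate 2, against 12.6 and 12.5 FPKM in replicate 1 (0.028, adjusted p 0.880). The catalytic subunits of the 2 replicative polymerases thus stood apart from POLA1 (0.44, adjusted p 0.0412) in value, a difference between genes that was not tested.

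Replicate 2 was higher than replicate 1 in both groups for 39 members (84.8%), against 30.8% of all genes. It was lower in both groups for 0 members, against 45.4% of all genes. The members' median replicate difference was 0.26 in knockdown and 0.40 in control cells. In size the replicate difference was larger in control cells in 33 of 46 members (71.7%), against 63.9% of all genes, and as a signed value in 32, against 45.8%. MCM5 had 0.11 in knockdown and 0.73 in control cells, MCM2 had 0.13 and 0.56, and PCNA had 0.10 and 0.50, so that control replicate 1 was the lowest library of each. With 1 library in each combination of group and number, a test of whether the replicate difference itself depends on the knockdown has no replicate behind it and was not made.

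Other genes of the pathway, 90 listed and 88 tested, were set beside the members. Without the replicate number 0 passed in either direction by limma (4 of 88 at an unadjusted p under 0.05, against 777 of 12137 genes). With that number as a term 0 were higher, against 1.60% of all genes, and 3 were lower with knockdown, against 1.92% of all genes: DSCC1, a subunit of an alternative clamp loader, and the transcription factors E2F1, an activator of S phase genes, and E2F7, a repressor of them. DSCC1 was at 7.53 and 10.3 FPKM in knockdown cells, against 13.1 and 19.3 FPKM in control cells (log2 difference -0.79, adjusted p 0.628, or 0.0178 with the term). E2F1 was at 10.7 and 10.7 FPKM in knockdown cells, against 18.7 and 21.7 FPKM in control cells (-0.85, adjusted p 0.387, or 0.0137 with the term). E2F7 was at 22.1 and 28.3 FPKM in knockdown cells, against 45.8 and 44.2 FPKM in control cells (-0.82, adjusted p 0.424, or 0.0173 with the term). Both knockdown libraries of each were below both controls, as in 14 of the 88 (15.9%) and in 16.6% of all genes. Each of the 3 differed by more on the log2 scale than any of the 46 members. They were picked by their calls in these same data, so that order and size are not separate support.

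By list, the gene with the largest knockdown difference was DSCC1 among 27 tested other replisome subunits and E2F1 among 13 E2F, DP and pocket protein genes. Cyclin E1, CCNE1, led the 17 kinases and checkpoint genes, at 3.95 and 6.13 FPKM in knockdown cells, against 6.18 and 6.68 FPKM in control cells (-0.32, adjusted p 0.866). SKP2, a substrate receptor of a ubiquitin ligase other than that of DTL, led the 6 tested genes listed beside the DTL ligase and geminin. It was at 16.4 and 23.6 FPKM in knockdown cells, against 20.3 and 31.9 FPKM in control cells (-0.36, adjusted p 0.885, or 0.0919 with the replicate number as a term). Mitochondrial thymidine kinase TK2 led the 16 further genes of nucleotide supply, at 13.2 and 10.9 FPKM in knockdown cells, against 8.32 and 8.94 FPKM in control cells (0.44, adjusted p 0.747). SSRP1, a subunit of the histone chaperone FACT, led the 9 histone chaperones, at 135 and 147 FPKM in knockdown cells, against 151 and 184 FPKM in control cells (-0.24, adjusted p 0.851). None of these 4 passed in either fit.

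Between the replicate numbers, 17 of the 88 were higher in replicate 2, against 4.80% of all genes, and 1 was lower, against 9.22%. The difference was above 0 in 71 of them (80.7%), against 41.9% of all genes, with a median of 0.18 against -0.057. Those higher included CCNE2, cyclin E2, at 11.1 and 13.0 FPKM in replicate 2, against 6.96 and 5.28 FPKM in replicate 1 (0.88, adjusted p 0.0214), and CLSPN, the checkpoint adaptor claspin, at 37.1 and 35.8 against 25.9 and 20.6 FPKM (0.64, adjusted p 0.0173). The 1 lower was POLD4, the smallest polymerase delta subunit, at 29.3 and 23.9 FPKM in replicate 2, against 48.3 and 47.6 FPKM in replicate 1 (-0.83, adjusted p 0.0144). The catalytic subunit of the same enzyme, POLD1, stood at 0.0082 in the same comparison. POLD4, CCNE2 and CLSPN were named after their values were seen.

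Markers of G2 and M phase and of proliferation, 12 genes including MKI67, TOP2A and CCNB1, were set beside the members as a second class of cell cycle genes. Their replicate median was 0.067, against -0.057 for all genes, and 8 of 12 (66.7%) were above 0, against 41.9% of all genes. Of the 12, 0 were called higher, against 4.80% of all genes, and 1 was called lower, against 9.22%. The 1 called lower was Aurora B (AURKB), which acts in the chromosomal passenger complex. MKI67 was at 106 and 106.5 FPKM in replicate 2, against 92.8 and 103 FPKM in replicate 1 (0.12, adjusted p 0.335). The replicate difference was larger in size in control cells in 4 of these 12 (33.3%), against 33 of the 46 members and 63.9% of all genes. As a signed value it was larger in control cells in 0 of the 12, against 32 of the 46 members and 45.8% of all genes. For the knockdown their median was -0.069, and 2 of 12 (16.7%) were above 0, against 52.3% of all genes. AURKB was at 45.1 and 36.3 FPKM in knockdown cells, against 70.7 and 54.3 FPKM in control cells (-0.60, adjusted p 0.627, or 0.0171 with the replicate number as a term). The share of cells in each cycle phase was not measured, and its part in the replicate difference was not tested.

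**Figure D4:**
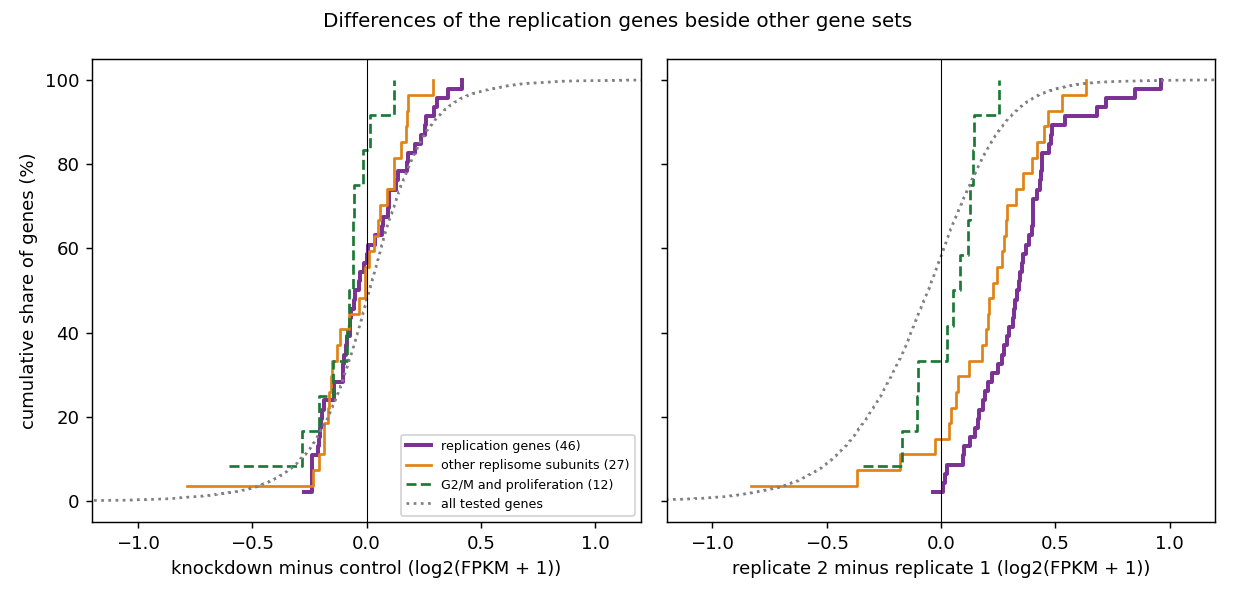
Cumulative share of genes (%) against the log2(FPKM + 1) difference of knockdown minus control (left) and replicate 2 minus replicate 1 (right), for the 46 replication genes, 27 other replisome subunits, 12 markers of G2/M and proliferation, and all tested genes. On the left the members' median is -0.042, and 43.5% of members, 16.7% of the markers and 52.3% of all genes lie above 0. On the right the members' curve lies farthest right, with a median of 0.34 against 0.067 for the markers and -0.057 for all genes.

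The members' values came from 184 transcripts, all present in the 4 tables. MCM6, PRIM2 and CHAF1B have a single transcript in the tables, and 43 members have several, so a gene value is mostly a sum. In 45 members, all but RPA3, the same transcript led in every library, and its replicate difference was above 0 in 40 of 46 members. Over the 45 leading transcripts with a known length, the library with the fewest had an estimated 170 to 5680 fragments, with a median of 909, which is a counting error of 1.33% to 7.68%. For 12 members, among them GINS2, RFC4, RPA1, FEN1 and TYMS, the files join the locus with another gene, and with no strand setting stated, reads of overlapping genes may be split uncertainly. Clear of other genes in the files, on GRCh37 coordinates, were the loci of CDC6 (chr17:38443884-38459171), GMNN (chr6:24775158-24786327), MCM10 (chr10:13203553-13253104) and RRM2 (chr2:10262454-10271545).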

How the data were processed

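Each library had 1 deposited table of 81493 transcripts, whose header gives no unit. Its deposited values were taken to be FPKM because they are fractional and because low values are multiples of a smallest step that depends on transcript length. Per the submitters' processing notes, bcl2fastq 2.19, HTSeq 0.8.0 and the build hg38 were used, while no source used here names the program behind the values. Coordinates in the files are GRCh37, since a chromosome 4 locus ends at 191013719, past the end of that chromosome in GRCh38.

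Transcript values were summed by gene ID to 20140 genes. Row order and the 81 transcripts found only in each replicate number point to a separate quantification run for each number, which no label states. Replicate differences in knockdown and in control cells correlated with r = 0.645 across the 12137 tested genes (0.634 across the members), with genes not independent. Since each number holds 1 library of each group, it pairs the libraries. The fit with it as a term is printed where it changes a call or a count.

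Differences were tested on log2(FPKM + 1) by limma 3.58.1 with trend (R 4.3.3), for genes that reached 1 FPKM in 2 or more libraries, Benjamini-Hochberg adjusted over all tested genes, threshold 0.05. The knockdown comparison had no other term, and the replicate comparison had the group as a term. This scale understates differences of low genes. An exact permutation test of 2 against 2 cannot go below p = 0.333. The fits were tested on simulated data with effects larger than any member's difference. That test does not cover differences of the size seen here. Depth was estimated from the size of 1 read in low values with GENCODE 29 lengths, so it is rough, and counting errors cover counting only. Named genes were AURKA, the members with the largest and smallest differences overall and by role, and in each list those past the threshold and the largest. The other members are given too. The result of 1 listed marker gene is not reported here. Members, lists and tests were chosen with earlier results of these data known. Alternatives were another pseudocount, filter, scaling, transcript set, the replicate block and leaving out each library.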

Additional observations from a re-analysis of the deposited data

How the results depend on the processing

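For the knockdown, 0 members were called in the 16 settings run, and the pathway's other genes gave 0 except with the replicate block. With that block, the fit that takes the replicate number as a term, 427 genes (194 higher, 233 lower) and 3 other pathway genes were called. The block with median-of-ratios scaling gave 1183 and 6, with a pseudocount of 0.1 it gave 289 and 3, with a filter at 5 FPKM 443 and 3, and without a filter 0 and 0. Without the block, all genes called were 1 with a filter at 5 FPKM, 2 with median-of-ratios scaling, 3 with equal totals and 6 to 14 with 1 library left out.

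For replicate 2 against replicate 1, the reported counts were 1701 genes, 18 members and 18 other pathway genes. Dropping the group term or the filter gave 0 of each, and median-of-ratios scaling gave 2849, 31 and 32. A pseudocount of 0.1 gave 1361 genes and 11 members. With 1 library left out and no group term, 0 to 47 genes, 0 to 1 members and 0 other pathway genes were called, a lone library being assumed to vary like the rest. Members' medians ran from 0.29 to 0.39. Under knockdown, 9 to 14 members changed sign with 1 library left out, in fits that mix the group with the replicate number. The causes of these shifts were not tested, beyond the fewer libraries or larger gene number of a setting. The blocks with another pseudocount or filter were chosen after seeing the data. Values of FPKM limit the precision of low genes, and 2 libraries a group limit all tests.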
